A study of Saccharomyces cerevisiae with 6 samples.

Results

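The head of the small ribosomal subunit is formed by the 3' major domain of 18S rRNA, taken here as nucleotides 1141 to 1629 of 18S. These are nucleotides 1841 to 2329 of the 35S pre-rRNA, transcribed from the yeast ribosomal DNA unit RDN37-1. The domain was chosen by position alone and holds 489 of the 6858 nucleotides of the transcript and of the 1800 nucleotides of 18S. All 489 had a reactivity in both strains.

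Particles were purified through TAP-tagged Mrd1, which binds RNA in early pre-ribosomes, from budding yeast (Saccharomyces cerevisiae) of the BY4741 background. The mutant carried mrd1-deltaRDB5-TAP, a tagged Mrd1 without the segment the label calls RDB5, together with pGAL-HA-MRD1, a further MRD1 gene under a galactose-driven promoter. It was treated with DMSO (2 libraries) or with the SHAPE reagent 1M7 (2 libraries), and these 4 libraries were reused from an earlier series. The Erb1-depleted strain, called the depleted strain below, carried GAL::3HA-ERB1 and MRD1-TAP and was treated with 1M7 (2 libraries). Erb1 is an assembly factor of the large subunit. The labels give neither the time of depletion nor the medium of each sample, and the groups include no strain without either change, so the Mrd1 deletion, the loss of Erb1 and the separate origin of the libraries cannot be told apart. By its title, the study concerns Mrd1-dependent rearrangements of pre-rRNA and of U3, a snoRNA that pairs with it.

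1M7 reacts with the 2'-hydroxyl of nucleotides that are free to move, and paired or protein-bound nucleotides react less. In the mature subunit the head swivels on a narrow neck while tRNA and mRNA move through the ribosome, and its inner face holds bases that touch the tRNAs. Its RNA is made late in 18S transcription, and the head takes its final shape late in subunit assembly. Several of its bases are modified by snoRNA-guided enzymes or by Bud23, a methyltransferase.

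Each strain had 1 deposited value per nucleotide, so differences could not be set against a spread between libraries, and the read depth behind a value is unknown. No test or p-value is given for that reason. Reads from the many near-identical rDNA repeats cannot be told apart. A nucleotide was taken as modified where the posterior probability from the BUM_HMM model was at least 0.95. Levels below are normalized reactivities, a score with negative values set to 0. Differences are the raw reactivity of the mutant minus that of the depleted strain, smoothed over 3 nt and given in units of the transcript-wide SD of such differences. A difference was called where it reached 1 SD at 3 or more nucleotides of a window of 5 nt and the deposited Z-factor was above 0. Called nucleotides were counted where they were modified in at least 1 strain.

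The stretches on which the results turn are shown 5' to 3' as the deposited sequence gives them, with T for U and with positions counted along 18S. In the first line capitals mark nucleotides modified in both strains at the start of the head, the window with the most modified nucleotides in the mutant. In the second they mark the same in the predicted hairpin that held the most reactive base. In the next 3 lines they mark nucleotides called higher in the depleted strain, and in the last line nucleotides called higher in the mutant.

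18S 1141 to 1170: GAATTgacggAAgggcaccacCAGGAgtgg

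18S 1493 to 1514: accttggccgAgAggtcttggt

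18S 1258 to 1273: tttgtGGGTGGtggtg

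18S 1281 to 1292: gttctTAgttgg

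18S 1393 to 1429: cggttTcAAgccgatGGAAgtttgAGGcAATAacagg

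18S 1595 to 1625: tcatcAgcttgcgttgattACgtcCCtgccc

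Fewer head nucleotides were modified than elsewhere in 18S. In the mutant 79 of 489 were modified (16.2%, Wilson 95% interval 13.2 to 19.7), against 319 of the other 1311 nucleotides of 18S (24.3%, 22.1 to 26.7) and 18.5% of the transcript. In the depleted strain 88 were modified (interval 14.8 to 21.6%), against 373 in the rest of 18S (28.5%, 26.1 to 31.0) and 21.1% of the transcript. The intervals treat nucleotides as independent, which neighbours are not. The head's share therefore lay below that of the rest of 18S in both strains, and nearer to that of the transcript as a whole.

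Levels showed another picture than the posteriors. The mean level of the head was 0.273 in the mutant and 0.284 in the depleted strain, against 0.297 and 0.278 in the rest of 18S. Its median level was 0.125 and 0.148, against 0.0572 and 0.0668 in the rest of 18S. Fewer of its nucleotides were set to 0 (39.3% and 38.2%, against 46.8% and 46.6%), and its raw reactivities spread less (SD 0.0990 and 0.120, against 0.139 and 0.155). The head thus had a higher median and a narrower spread than the rest of 18S. Its maximum was 2.11 in the mutant and 1.58 in the depleted strain, while the rest of 18S reached 2.51 and 2.23.

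**Figure D1:**
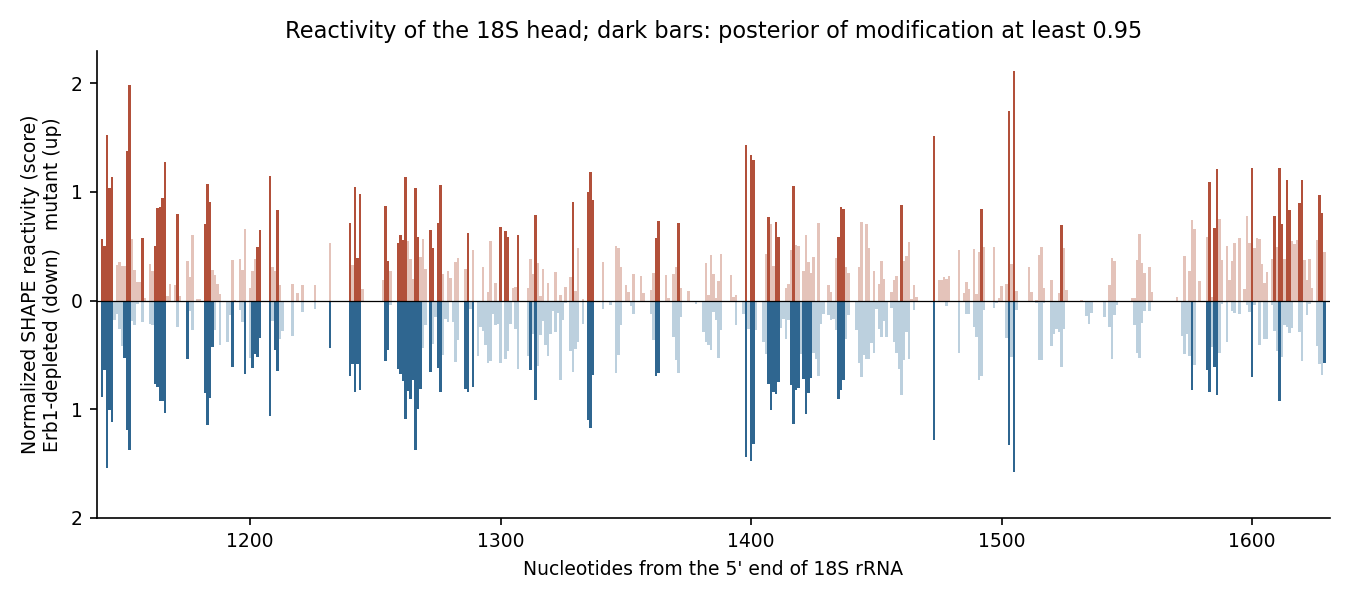
Normalized SHAPE reactivity (score) of each head nucleotide by its distance from the 5' end of 18S, with the mutant drawn upward and the depleted strain downward; dark bars mark modified nucleotides. Both strains show dense modification at the start of the head and no modified nucleotide from 1525 to 1575.

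Both strains marked largely the same nucleotides. They shared 59 modified nucleotides, which are 74.7% of those of the mutant and 67.0% of those of the depleted strain. In the rest of 18S the shared 278 made up 87.1% and 74.5%. Across the 489 head nucleotides raw reactivity in one strain followed that in the other with a Pearson r of 0.853 and a Spearman rho of 0.811, against 0.907 and 0.888 over the other 1311. These coefficients are descriptions, since nucleotides share libraries and sequence, and the strains may share control libraries. Shared nucleotides had similar mean levels (0.944 in the mutant and 0.910 in the depleted strain).

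The nucleotides modified in 1 strain alone differed in base. The 20 modified only in the mutant were 9 A, 7 U, 3 C and 1 G, with levels of 0.480 to 1.11 in the mutant and 0.196 to 0.874 in the depleted strain. The 29 modified only in the depleted strain were 14 G, 7 A, 7 U and 1 C, with levels of 0.199 to 0.739 and 0.432 to 1.05. Guanosine was the most frequent base of the second group and the rarest of the first. Of its guanosines, the second group had G1263 to G1265, G1268, G1408, G1409, G1416, G1418 and G1419 within 1263 to 1268 and 1398 to 1424. These stretches are described below for their calls, so the difference in base is not a separate result.

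By base, the strains were close at A and U and apart at G, in part through the guanosines just named. In the mutant 34.2% of the 114 adenosines were modified (39, interval 26.1 to 43.3), and in the depleted strain 32.5% (37, 24.6 to 41.5). Of the 134 uridines 27 were modified in each strain (20.1%). Of the 136 guanosines 9 were modified in the mutant (6.62%, 3.52 to 12.1) and 22 in the depleted strain (16.2%, 10.9 to 23.3). Cytidines were the least often modified, with 4 and 2 of 105. Over the rest of 18S, 16.7% and 22.6% of guanosines and 42.3% and 47.4% of adenosines were modified. Each base of the head had a lower share than in the rest of 18S in both strains. The head also held less A (23.3% of its nucleotides, against 28.1%).

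Pairing was predicted from the sequence of the head alone with RNAfold, which gives a minimum free energy fold and not the known structure. The fold paired 320 of the 489 nucleotides. In the mutant 11.9% of paired nucleotides were modified (38, interval 8.78 to 15.9) and 24.3% of the 169 unpaired ones (41, 18.4 to 31.2). In the depleted strain the shares were 14.7% (47, 11.2 to 19.0) and 24.3% (41). Unpaired nucleotides were thus modified more often in both strains, and the intervals of paired and unpaired nucleotides overlapped slightly in the depleted strain alone. In the 38 nucleotides of hairpin loops 10 and 11 were modified. Adenosines were modified in both classes, at 14 of 58 when paired in either strain and at 25 and 23 of 56 when unpaired.

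**Figure D2:**
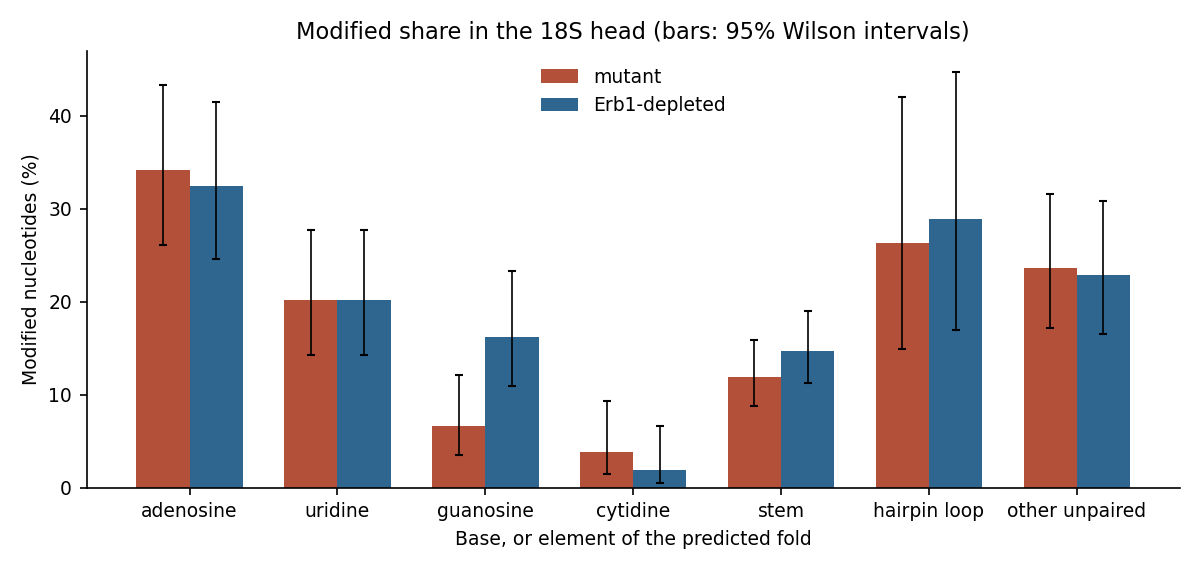
Percent of head nucleotides modified, by base and by element of the predicted fold, in the mutant and the depleted strain, with Wilson 95% intervals. Guanosines differ most between the strains (6.62% and 16.2%), and stems lie below both unpaired classes in each strain.

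Adenosines led the list of most reactive nucleotides in both strains. A1505 ranked first in both strains, with levels of 2.11 in the mutant and 1.58 in the depleted strain. It lies with A1503 (1.74 and 1.33) in the all-purine loop of the predicted hairpin at 18S 1493 to 1514 shown above. The G1504 between them had 0.336 and 0.524, so reactivity alternated along this loop.

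At the start of the head A1152 had 1.98 in the mutant and 1.37 in the depleted strain, and A1143 had 1.53 and 1.54. A1166, at the end of the modified run CAGGA, had 1.28 and 1.03. U1473 had 1.51 and 1.29, although the fold places it, like A1152, in a stem. These bases were modified in both strains, and none was called different.

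The mutant's other leading nucleotides were U1398 (1.43, against 1.44 in the depleted strain), A1600 (1.22 and 0.699), A1611 (1.22 and 0.922), A1586 (1.21 and 0.870) and A1336 (1.18 and 1.18). The depleted strain's list also held A1400 (1.34 in the mutant and 1.48), U1266 (1.04 and 1.37), A1183 (1.07 and 1.15), A1417 (1.05 and 1.13) and A1208 (1.15 and 1.07). The strains' lists of 10 shared 5 names, namely A1505, A1143, A1152, U1473 and A1336, and every base on either list was modified in both strains.

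Modification was uneven along the head. In windows of 50 nt laid from 1141, the first held 17 modified nucleotides in the mutant and 18 in the depleted strain, and 1241 to 1290 held 16 and 22. The 50 nt just before the head held 37 and 40, so modification was denser there than in any window of the head. The 50 nt just after the head held 3 and 2. In 1191 to 1240 the numbers were 5 and 11, in 1291 to 1340 they were 9 and 5, and in 1391 to 1440 they were 10 and 19.

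Other windows held few modified nucleotides in both strains. There were 3 and 2 modified nucleotides in 1341 to 1390, 2 and 1 in 1441 to 1490, 4 and 2 in 1491 to 1540, and 3 and 5 in 1541 to 1590. The last 39 nucleotides, 1591 to 1629, held 10 in the mutant and 3 in the depleted strain. Levels did not follow these counts throughout, since 1441 to 1490 had mean levels of 0.199 and 0.235, above the 0.162 and 0.184 of 1191 to 1240 with its larger counts. The last window had the widest gap in mean level between the strains, at 0.515 and 0.227, while 1391 to 1440 had 0.335 and 0.486.

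**Figure D3:**
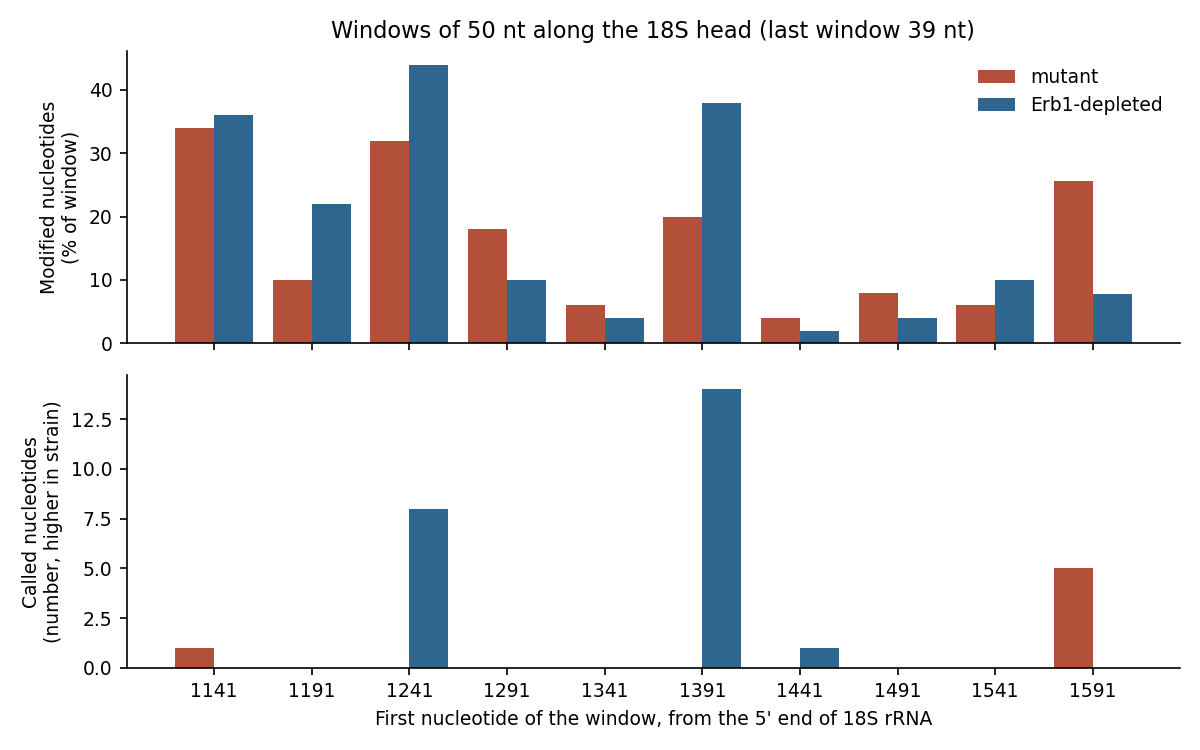
Percent of nucleotides modified (top) and number of called nucleotides higher in each strain (bottom) in windows laid along the head, named by their first nucleotide. Calls higher in the depleted strain lie in the windows from 1241, 1391 and 1441, and those higher in the mutant in the first and the last window.

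The longest stretch without a modified nucleotide in either strain was 18S 1525 to 1575, of 51 nt. It is shown because the lack of modified nucleotides was common to both strains, with capitals for nucleotides paired in the predicted fold.

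18S 1525 to 1575: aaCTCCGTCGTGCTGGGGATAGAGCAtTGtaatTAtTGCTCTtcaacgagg

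Its mean level was 0.0830 in the mutant and 0.100 in the depleted strain, although single levels reached 0.609 and 0.538. The fold paired 66.7% of it and left its 3' end unpaired. That end holds no modified nucleotide by the choice of the stretch, and A1576 just beyond it was modified in the depleted strain. The unpaired end carries G1572 and G1575, which are methylated in the mature rRNA. The next longest stretches without one were 1372 to 1397 (26 nt, mean levels 0.0846 and 0.122), 1338 to 1361 (24 nt, 0.115 and 0.0910), 1438 to 1459 (22 nt, 0.193 and 0.330) and 1212 to 1231 (20 nt, 0.0325 and 0.0573). The stretch 1438 to 1459 lacked modified nucleotides by the posterior but not reactivity, since its mean level in the depleted strain was above that of the head and single levels reached 0.719 and 0.708.

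The comparison of the strains asked where in the head 1M7 reacted differently. The rule called 29 modified nucleotides, of which 23 were more reactive in the depleted strain and 6 in the mutant. These are 4.70% and 1.23% of the head, against 5.15% and 0.81% of the transcript and 6.18% and 1.22% of the rest of 18S. The head's share of calls was near the background in both directions. The calls were not spread along the domain. The counted calls toward the depleted strain lay between 1263 and 1460, and 5 of the 6 toward the mutant lay between 1600 and 1620. These numbers equal those in the authors' deposited table, which marks the same 29 nucleotides.

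**Figure D4:**
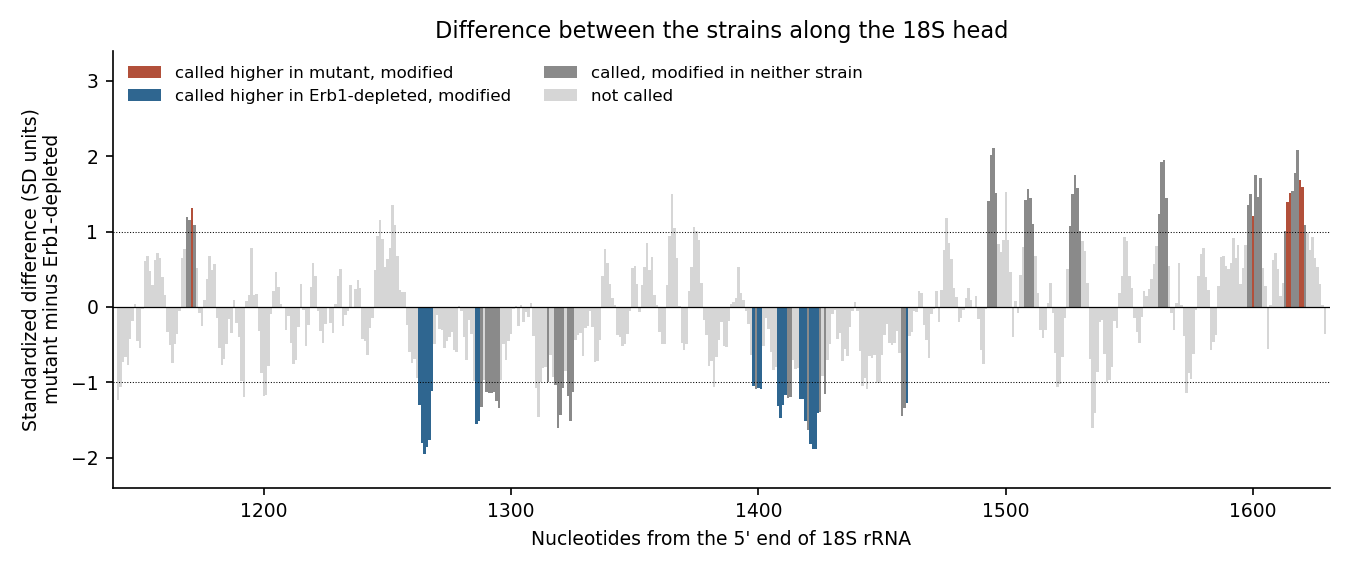
Standardized difference (mutant minus depleted strain, in SD of the transcript) at each head nucleotide, with called nucleotides coloured by direction and dotted lines at 1 SD. Called bars from 1263 to 1460 lie below 0 and called bars from 1493 to 1621 above 0, with uncalled bars of either sign among them.

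A guanosine-rich run, G1263 to G1268, was more reactive in the depleted strain at each of its 6 nucleotides. Its mean level was 0.526 in the mutant and 0.943 in the depleted strain, and 2 against 6 nucleotides were modified. G1264 had 0.381 and 0.908, G1265 had 0.199 and 0.730, and G1267 had 0.587 and 0.998. U1266 had the highest level of the run in both strains (1.04 and 1.37). The lowest standardized difference of the head was at G1265 (−1.95), followed within the run by U1266 (−1.86), G1264 (−1.80) and G1267 (−1.76). The difference ended sharply, since U1269, the next nucleotide, had 0.568 and 0.433 with a standardized difference of −0.50. The run was part of the longest series of adjacent nucleotides modified in at least 1 strain, 1259 to 1268.

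Close by, U1286 had 0.293 in the mutant and 0.812 in the depleted strain, and A1287 had 0.621 and 0.843. Their standardized differences were −1.55 and −1.52. Only A1287 was modified in the mutant, and both were in the depleted strain. The mean difference of the pair stayed between −1.53 and −1.30 on every scale tried.

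The longest stretch, 18S 1398 to 1424, held 14 of the 23 calls toward the depleted strain. All 27 of its standardized differences were negative, its mean level was 0.440 in the mutant and 0.675 in the depleted strain, and 7 against 16 nucleotides were modified. The gap was widest in its 3' part. The levels were 0.268 and 0.725 at A1421, 0.604 and 1.05 at A1422, 0.357 and 0.850 at U1423, and 0.257 and 0.716 at A1424. None of these 4 was modified in the mutant and all were in the depleted strain. Their standardized differences were −1.82, −1.88, −1.88 and −1.41.

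Before them came G1419 (0.504 and 0.806, −1.52), A1417 and G1418 (both −1.23), and the run G1408 to A1411 with mean levels of 0.583 and 0.866. At the 5' end of the stretch the calls U1398, A1400 and A1401 held only with the deposited raw scores and settings. Their levels nearly coincided (1.43 and 1.44 at U1398, 1.34 and 1.48 at A1400, 1.29 and 1.32 at A1401), and none of the 3 was called on any of 6 other scales or settings. The single call at A1460 also had near-equal levels (0.881 and 0.874) and was modified in the mutant alone. It was called through its neighbours by smoothing, and without smoothing its difference was −0.42.

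At the 3' end of the head the direction turned. A1614 had a level of 1.11 in the mutant and 0.248 in the depleted strain, C1615 had 0.835 and 0.296, C1619 had 0.895 and 0.291, and C1620 had 1.11 and 0.559. All 4 were modified in the mutant and none in the depleted strain. Their standardized differences were 1.40, 1.51, 1.69 and 1.60. The nucleotides between them, G1616 to C1618, lay on the same side (1.54, 1.78 and 2.09) but were modified in neither strain. The other call near this end was A1600, in the loop of the preceding predicted hairpin (1.22 and 0.699, difference 1.20), which was modified in both strains and fell under the threshold with a running median taken out (0.864) and without smoothing.

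Of the 39 nucleotides from 1591 to 1629, 37 had a positive difference, with a mean of 0.863. That mean was 0.482 with a running median taken out and 1.59 on normalized scores with negatives at 0. In the 50 nt that follow the head, 35 were positive, with a mean of 0.463 and no call. In the predicted fold 1610 to 1620 is the unpaired linker between the last hairpin and the strand that pairs with nucleotides near the 5' end of the domain. The 1 call toward the mutant at the other end of the head was A1171 (0.797 and 0.240, difference 1.31), also unpaired in the fold. Of the counted calls, the 6 toward the mutant (3 A and 3 C) were unpaired in the fold. Of the 23 toward the depleted strain (10 A, 9 G and 4 U), 12 were paired. Counted calls had to be modified, and of all modified head nucleotides 38 of 79 in the mutant and 47 of 88 in the depleted strain were paired. Without the filter on modification 20 of 36 calls toward the mutant and 31 of 46 toward the depleted strain were paired. The same was true of 65.4% of all head nucleotides. The contrast between the directions was thus smaller without the filter (55.6% paired toward the mutant, 67.4% toward the depleted strain), and it was not tested.

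The calls also differed in how far they depended on the scale. The depleted strain's raw reactivities spread more widely than the mutant's, 1.21 times over the transcript and over the head alike. With each strain's own normalization factor the head had 6 calls toward the mutant and 13 toward the depleted strain, and at equal SD 7 and 13. Over 6 alternatives (the 4 other scalings, a running median taken out and no smoothing), 5 of the 6 calls toward the mutant were called in every one, as were 11 of the 23 toward the depleted strain. All 29 kept their sign in each. Only the differences were recomputed, while the Z-factor and the filter on modification were held fixed. The 29 had also been picked for differences of at least 1 SD, which favours a kept sign. The stretch 1398 to 1424 kept 6 of its 14 calls with own normalization factors, at equal SD and after quantile normalization. The 4 nucleotides A1614, C1615, C1619 and C1620 remained called throughout, as did G1264 to G1267 and A1421 to A1424.

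**Figure D5:**
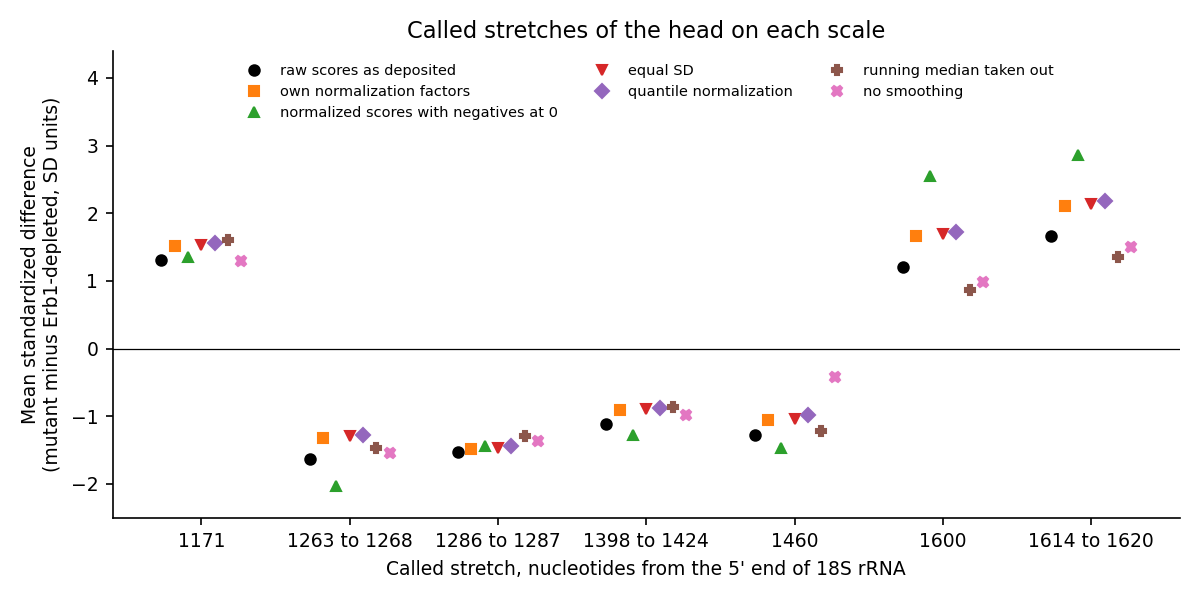
Mean standardized difference of each called stretch of the head on the deposited raw scale (black) and under 6 alternatives. Every point keeps its side of 0, and the stretch 1614 to 1620 ranges from 1.35 to 2.87.

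Many calls fell on nucleotides modified in neither strain and were not counted above. Without the filter on modification 36 lay toward the mutant and 46 toward the depleted strain. Toward the mutant they included 1493 to 1496 (mean 1.76, with the head's highest value, 2.11, at C1495), 1508 to 1511 (1.39), 1526 to 1530 (1.38) and 1562 to 1565 (1.64). At most 1 nucleotide of each run had a level above 0 in a given strain, so the differences were mostly between negative raw scores. Toward the depleted strain they included 1290 to 1295 (−1.19), 1318 to 1321 (−1.29) and 1323 to 1325 (−1.27), where mean levels were 0.0660 and 0.337, 0.0398 and 0.330, and 0.0159 and 0.343. The window 1291 to 1340 accordingly had 43 negative differences of 50 (mean −0.60) without a counted call.

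Over the whole head the differences nearly cancelled. Of the 489 nucleotides, 207 were positive and 282 negative, with a mean of −0.0881. The mean turned to 0.0191 once the strains' scores were quantile normalized and to 0.0304 once a running median was removed, so no direction can be given for the head as a whole.

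Among 10 listed bases that carry modifications in mature rRNA, none reached the posterior threshold for 1M7 in either strain. The head's share was 79 of 489 in the mutant and 88 of 489 in the depleted strain, so 0 of 10 is not far from the background. The median level of the 10 was 0 in the mutant, below that of the head (0.125), and 0.198 in the depleted strain, above that of the head (0.148), with levels above 0 at 4 and 6 of them. They are the pseudouridines at U1181 (guided by snR85), U1187 (snR36), U1290 and U1415 (snR83), the hypermodified U1191 (snR35), the 2'-O-methylated U1269 (snR55), G1271 (snR40), G1428 (snR56) and G1572 (snR57), and G1575, methylated by Bud23. A methyl on the 2'-oxygen blocks the group that 1M7 acylates, and the bulky group on U1191 can itself stop reverse transcriptase. The deposited values do not tell which of these modifications the purified pre-rRNA already carried.

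U1181, G1271 and U1290 had a level of 0 in both strains. U1191, which faces the P-site tRNA in finished ribosomes, had a level of 0 in the mutant against 0.382 in the depleted strain, with a standardized difference of −0.98. G1428 had 0 and 0.220, G1572 had 0 and 0.329, U1415 had 0.149 and 0.176, and U1187 had 0.156 and 0. U1269 had the highest level of the list in the mutant (0.568, and 0.433 in the depleted strain), and adjoins the called run G1263 to G1268.

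The bases that face the tRNA sites include U1191 and G1575 and also G1150, C1274 and A1576. G1150 (0.317 in the mutant and 0.531 in the depleted strain) and A1576 (0.739 and 0.826) were modified in the depleted strain alone. G1575, beside A1576, had 0.275 and 0.509, and C1274, at the decoding site, had 0 and 0.151. None of the 13 bases on the lists was counted as called, where 5.93% of the head was, a share that gives fewer than 1 in 13. U1290 (−1.13) passed the difference rule but was modified in neither strain. All 13 had a negative standardized difference (mean −0.61), where 57.7% of the head did. Of the 13, 11 were negative on normalized values with negatives at 0, 11 with a running median taken out and 10 without smoothing.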

How the data were processed

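The deposited sheet gives scores per nucleotide of the 35S transcript, with 1 column per strain and the libraries of a strain not told apart, per the file headers. The authors' raw and normalized reactivity scores, BUM_HMM posteriors, Z-factor and standardized difference were used as deposited. A note in the sheet names a 2% to 8% normalization for the normalized scores. The aligner was Novoalign, per the submitters' processing notes, with no version stated. The genome build, the making of the raw scores and the control libraries behind the Erb1-depleted strain are not given in the sources used here. Nor are labels for the columns, so that headed D5 was taken as the mutant and that headed DErb1 as the Erb1-depleted strain. Region bounds, another kind of value, were taken from the deposited annotation.

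The difference rule was run over the whole transcript. Recomputed, it gave 390 calls, of which 0 differed from the authors' deposited table. On the deposited raw scores the recomputed standardized differences lay within 0.0155 of the deposited ones in the head. Python 3.11.15, numpy 2.4.6, pandas 2.3.3, scipy 1.17.1 and RNAfold 2.7.2 (default parameters) were used. The labels give a DMSO and a 1M7 library of the mutant the same 5' barcode. Nucleotides named are the 10 most reactive modified ones of each strain at least 5 nt apart, the 10 largest called differences in each direction, the listed bases and each window; a few neighbours were named after their values were seen. The domain, the lists and the alternatives were chosen with earlier results of these data known. All 13 listed bases were found at their positions in the sequence.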

Additional observations from a re-analysis of the deposited data

How the results depend on the processing

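With 1 value per nucleotide and strain, leaving out a library could not be run and depth cannot be judged. No paired analysis was possible because the columns carry no replicate numbers. Counts of modified nucleotides stayed within 1.5 times at posteriors of 0.9 and 0.99 and with 10 nt trimmed from each end. The mean level was 0.273 for the mutant against 0.284 for the depleted strain, but the median was 0.125 and 0.148. The 6 calls toward the mutant became 12 on normalized scores with negatives at 0, 36 without the filter on modification, 1 where both strains had to be modified and 0 at a threshold of 2 SD. The 23 toward the depleted strain became 13 with own normalization factors, 13 at equal SD, 12 after quantile normalization, 46 without the filter, 9 where both strains had to be modified and 0 at 2 SD. The mean standardized difference of the head, −0.0881, was −0.00851 with own factors and −0.0018 at equal SD, and turned to 0.0191 once scores were quantile normalized and to 0.0304 once a running median was removed. The share of A among modified nucleotides, 49.4% in the mutant and 42.0% in the depleted strain, fell to 21.5% and 21.6% when stops were moved by 1 nt upstream, and in the mutant to 24.1% downstream. Of the listed bases 2 were modified in at least 1 strain, and 1 at a posterior of 0.99. With stops moved by 1 nt downstream the shares modified of unpaired and paired nucleotides drew closer, to 20.1% and 14.4% in the mutant (from 24.3% and 11.9%) and to 19.5% and 17.2% in the depleted strain (from 24.3% and 14.7%).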
